A study of Mus musculus with 6 samples.

Results

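The genes described here encode enzymes that build triglyceride in fat cells from glycerol 3-phosphate and fatty acyl-CoA, and they were chosen by name. They are Gpam, Gpat3, Gpat4, Agpat2, Lpin1, Lpin2, Dgat1, Dgat2, Mogat2 and Gpd1. All 10 were on the array, by 21 probe sets that the platform annotation assigns to a single gene symbol, out of 34945 such probe sets in all. A probe set is a group of short probes against 1 transcript region, and its value is a log2 expression level. Of the 21 probe sets, 18 averaged 4.88 or more, the 40th percentile of all probe sets and the filter used on low values. All 10 genes passed it, and each was tested among 13453 genes by its probe set with the highest mean.

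Each array held an independent RNA pool of visceral white fat, from the epididymal pad of male C57BL/6 mice aged 16 weeks fed chow ad libitum. The genotypes were FTO flox/flox, called control below, with 3 pools, and Adiponectin-cre FTO flox/flox, called AFO, with 3 pools. Both carry floxed copies of Fto, an RNA demethylase gene, and only AFO carries the Cre recombinase, which adiponectin regulatory sequence directs to fat cells and not to the other cells of the pad. How many mice made a pool is not stated in the labels, so p-values measure the spread between these pools. Pools are numbered below by the replicate number in their titles. The labels do not state that equal numbers of the genotypes share a batch or are paired.

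Triglyceride is assembled stepwise at the endoplasmic reticulum. Acyltransferases of the GPAT family attach the first fatty acid to glycerol 3-phosphate, AGPAT enzymes add the second to give phosphatidate, lipins remove the phosphate to give diacylglycerol, and DGAT enzymes attach the last fatty acid. Gpd1 supplies glycerol 3-phosphate from glycolysis, and Mogat2 makes diacylglycerol from monoacylglycerol, a route best known from the intestine. Loss of AGPAT2, or in mice of lipin 1, causes lack of fat tissue.

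Fto itself read 5.59 to 6.20 in control and 5.45 to 6.13 in AFO, with a difference of -0.12 log2 units (SE 0.25), so it does not check the genotype labels, and the position of its probe set relative to the floxed part was not examined. Pool 2 of both genotypes stood apart from the other pools. The summed level of the 4 analysed B cell markers, as the log2 of the sum of linear levels, reached 10.96 and 11.63 for pool 2, against 7.34 to 8.08 on the other 4 arrays. That of the 5 mesothelial markers was 8.30 and 6.91 in pool 2 and 10.57 to 10.76 elsewhere. Fat cell markers were present on all arrays. All 7 analysed ones (Adipoq, Fabp4, Cidec, Lep, Retn, Lipe and Car3) passed the filter, with a summed level of 15.69 to 15.74 in control and 15.49 to 15.75 in AFO. All 7 had a lower mean in AFO, with a median difference of -0.20, as did 7301 of all 13453 genes tested. The direction was not particular to fat cell markers. All 6 macrophage (median -0.11), 5 endothelial (-0.25) and 5 mesothelial markers (-0.27) were also lower in AFO. All 6 skeletal muscle and 3 epididymis markers were higher, and the remaining marker lists held both directions. In bulk tissue, fewer fat cells and less RNA of a gene per fat cell cannot be told apart.

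No gene of the assembly pathway passed the test between genotypes. With limma, unpaired, 0 of the 10 passed an adjusted p of 0.05, as did 0 of all 13453 genes (0%). At an unadjusted p under 0.05 there were 0 of the 10 and 139 of all genes (1.03%). Differences between AFO and control ran from -0.48 for Gpat3 to 0.28 for Mogat2, each with a limma adjusted p of 0.999999. The mean was lower in AFO for 6 of the 10, and the median difference was -0.087 against -0.014 over all genes tested. With pool number as a block, 2 genes of the whole array (0.0149%) and 0 of the 10 passed. At an unadjusted p under 0.05 the block gave 2 of the 10, Gpat3 and Dgat1, beside 581 of all genes (4.32%).

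**Figure D1:**
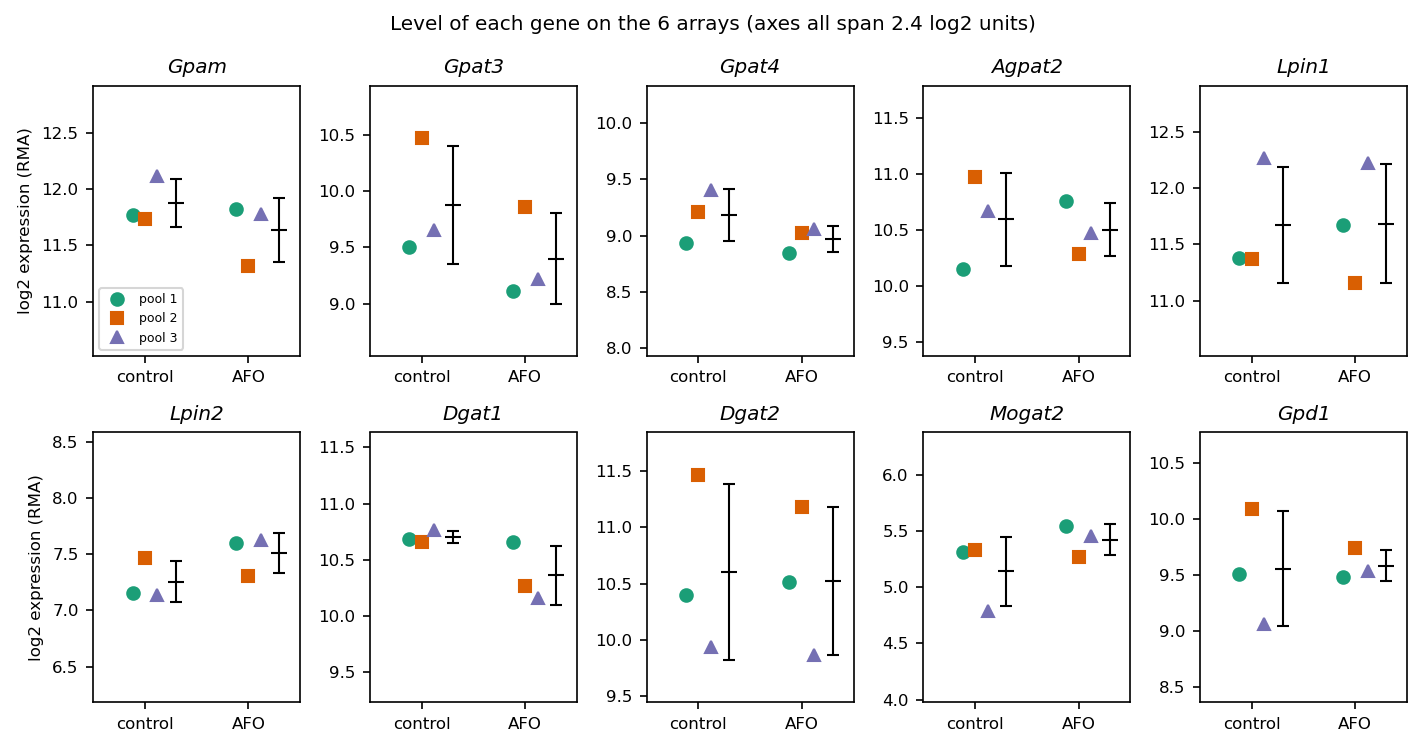
Level of each of the 10 genes (log2 expression after RMA, one panel per gene, all axes spanning the same width) on the 3 control and 3 AFO arrays, with symbols for pool numbers and bars for the mean ± SD of each genotype. The AFO values lie below all control values in Dgat1, where the genotype means are 10.70 and 10.36, and the genotypes overlap in the other 9 genes.

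The first acylation step is carried by Gpam, Gpat3 and Gpat4. Gpat3 encodes the enzyme of the endoplasmic reticulum that provides much of this activity in fat cells. It read 9.51, 10.47 and 9.65 in control pools 1, 2 and 3 and 9.12, 9.86 and 9.22 in the AFO pools of the same numbers. Pool 2 was the highest array in each genotype, and the genotypes overlapped because AFO pool 2 lay above control pools 1 and 3. Within each pool number the AFO array was lower, by -0.39, -0.61 and -0.43. The means were 9.88 ± 0.52 in control and 9.40 ± 0.40 in AFO (SD, n = 3), which differ by -0.48 (SE 0.32, 95% interval -1.23 to 0.28). With pool number as a block the standard error was 0.099 and the interval -0.72 to -0.24, with a limma unadjusted p of 0.00289, which ranked 36 of 13453, and an adjusted p of 0.990. Without both pool 2 arrays the difference was -0.41 (SE 0.16, limma adjusted p 0.890). Without control pool 2 it was -0.18, and without AFO pool 2 it was -0.71.

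Gpam encodes the mitochondrial form of the enzyme. Its main probe set read 11.77, 11.74 and 12.12 in control and 11.82, 11.31 and 11.78 in AFO, so the genotypes overlapped and AFO pool 2 was the lowest array. The difference was -0.24 (SE 0.19, 95% interval -0.68 to 0.21), and it was -0.077 without AFO pool 2, -0.12 without control pool 3 and -0.051 with array weights. The second Gpam probe set varied more. It read 9.20, 8.66 and 10.21 in control and 9.47, 8.43 and 8.84 in AFO, a difference of -0.44 (SE 0.43) in the fit over all probe sets. Control pool 3 was its highest array, and its pool 3 difference of -1.36 stood against 0.26 in pool 1 and -0.23 in pool 2.

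Gpat4, a close relative of Gpat3, read 8.94, 9.21 and 9.40 in control and 8.84, 9.02 and 9.06 in AFO. Its AFO array was lower within each pool number, by -0.094, -0.19 and -0.35, and the genotypes overlapped. The difference was -0.21 (SE 0.16, 95% interval -0.59 to 0.17), and it was -0.10 without control pool 3, -0.33 without control pool 1 and -0.043 with array weights. Its second probe set lay just below the filter, at 4.82 in control and 4.77 in AFO, with a difference of -0.059 (SE 0.13).

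Agpat2 encodes the acyltransferase that makes phosphatidate in fat. It read 10.15, 10.97 and 10.67 in control and 10.75, 10.28 and 10.47 in AFO. The highest and the lowest array were both control pools. Its differences within pools were 0.60, -0.69 and -0.19, so the pools did not share a direction. The difference of the means was -0.092 (SE 0.24, 95% interval -0.66 to 0.48). Without both pool 2 arrays it was 0.20 (SE 0.21, limma adjusted p 0.999).

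The lipins differed in how they varied. Lpin1, the main lipin of fat and also a regulator of gene expression, read 11.38, 11.37 and 12.26 in control and 11.67, 11.16 and 12.22 in AFO. Pool 3 was the highest and pool 2 the lowest array in each genotype. The means were 11.67 ± 0.51 and 11.69 ± 0.53 (SD, n = 3), which differ by 0.013 (SE 0.35, 95% interval -0.82 to 0.85). With the block the interval was -0.28 to 0.30. The second Lpin1 probe set had the same order of arrays by pool, with 10.70, 10.65 and 11.41 in control and 11.08, 10.50 and 11.63 in AFO, and a difference of 0.15 (SE 0.33).

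Lpin2, a second phosphatidate phosphatase that is prominent in liver, read 7.16, 7.47 and 7.14 in control and 7.60, 7.30 and 7.63 in AFO by its main probe set. AFO pools 1 and 3 were above all control arrays and AFO pool 2 was not. The difference was 0.26 (SE 0.16, 95% interval -0.13 to 0.64), and 0.47 (SE 0.15, limma adjusted p 0.648) without both pool 2 arrays. Other Lpin2 probe sets above the filter did not share this direction, with differences of -0.018 (SE 0.18) and -0.090 (SE 0.22). Their AFO pool 3 values, 5.07 and 4.48, were the lowest of the 6 arrays, while in the main probe set AFO pool 3 was the highest. A further probe set at a mean of 2.84 in control, below the filter, differed by 0.12 (SE 0.094). The mean of the 3 probe sets above the filter gave 0.050 for Lpin2.

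The last step is carried by Dgat1 and Dgat2, unrelated enzymes with the same reaction. Dgat1 was the 1 gene of the 10 whose genotypes did not overlap, beside 1.47% of all genes with AFO below control and 3.5% in either direction. It read 10.69, 10.66 and 10.76 in control and 10.66, 10.27 and 10.16 in AFO. The control arrays lay close together, AFO pool 1 lay next to them at 10.657 against 10.661 in the lowest control array, and AFO pools 2 and 3 were lower. The means were 10.70 ± 0.054 and 10.36 ± 0.26 (SD, n = 3), which differ by -0.34 (SE 0.16, 95% interval -0.72 to 0.034). With the block the interval was -0.66 to -0.023, with a limma unadjusted p of 0.0394 and an adjusted p of 0.990. Within pools the differences were -0.029, -0.40 and -0.60. A second, dimmer Dgat1 probe set, at 5.28 ± 0.10 in control and 5.27 ± 0.15 in AFO (SD, n = 3), overlapped and differed by -0.012 (SE 0.14).

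Dgat2, which is tied to newly made fatty acids, varied between pools far more than between genotypes. It read 10.40, 11.47 and 9.94 in control and 10.51, 11.18 and 9.87 in AFO. In both genotypes pool 2 was the highest and pool 3 the lowest array. The spread of 1.60 over the 6 arrays was larger than that of 93.5% of the genes tested, and the genotypes differed by -0.081 (SE 0.47, 95% interval -1.21 to 1.05). With the block the interval narrowed to -0.35 to 0.19. Its second probe set kept this order, with 8.998, 10.10 and 8.85 in control and 9.22, 9.90 and 8.01 in AFO. AFO pool 3 was low there, and the pool 3 difference was -0.84 against -0.072 in the first probe set.

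Mogat2, the neighbour of Dgat2 in the RefSeq gene order and a member of the same enzyme family, was dim. It read 5.31, 5.33 and 4.79 in control and 5.55, 5.27 and 5.45 in AFO. Its mean over the arrays passed the filter at 4.88, and control pool 3 on its own lay below that value. The difference of 0.28 (SE 0.19, 95% interval -0.17 to 0.73) rested largely on control pool 3, and it was 0.10 without that array. Of the 5 enterocyte markers, Apoa4, Mttp and Cdx2 passed the filter, and Fabp2 and Vil1 lay below it. The summed level of all 5 enterocyte markers was 7.20 to 7.38 in control and 7.32 to 7.55 in AFO, and its part in the Mogat2 values was not tested.

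Gpd1, the glycerol 3-phosphate dehydrogenase of the cytosol, read 9.51, 10.09 and 9.07 in control and 9.48, 9.74 and 9.53 in AFO. The 3 AFO arrays lay inside the range of the control arrays, and pool 2 was highest in both genotypes. The difference was 0.028 (SE 0.26, 95% interval -0.60 to 0.65). Its other probe sets disagreed on direction. The one at 7.34 ± 0.073 in control and 7.12 ± 0.25 in AFO (SD, n = 3) differed by -0.22 (SE 0.17) and was lower in AFO within all pools, another above the filter differed by 0.045 (SE 0.23), and the one below the filter by 0.028 (SE 0.17).

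**Figure D2:**
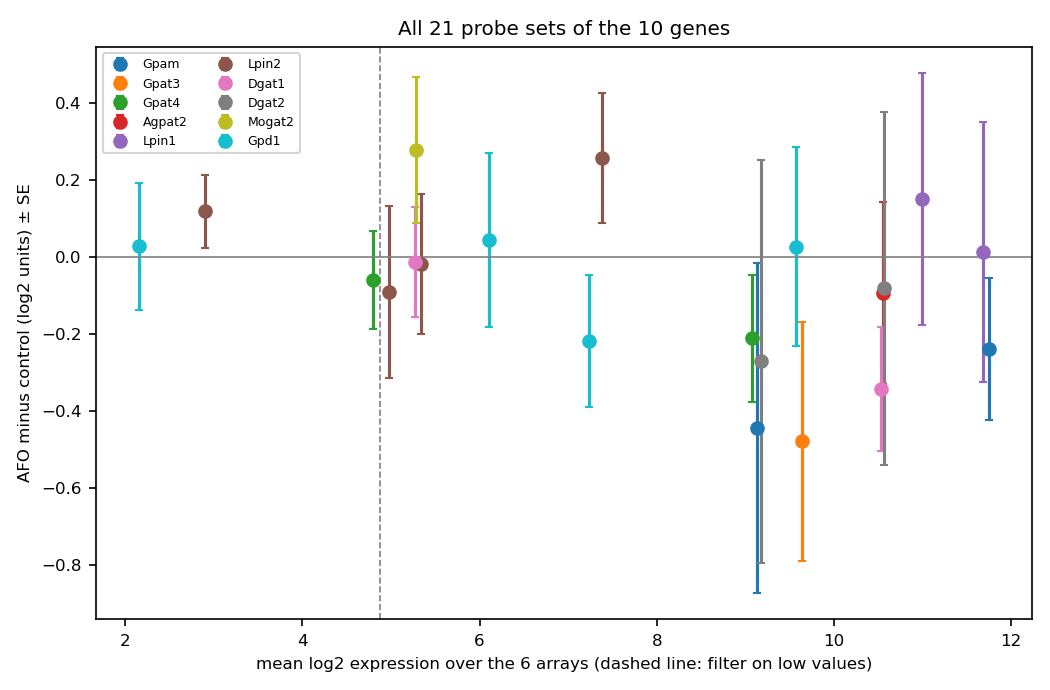
Difference between AFO and control (log2 units, bars are the standard error of the unpaired limma fit over all probe sets) against the mean level over the 6 arrays, for all 21 probe sets, coloured by gene. Probe sets of Lpin2 and of Gpd1 lie on both sides of 0, those of Gpam, Gpat4, Dgat1 and Dgat2 lie below it, and the main Dgat1 probe set lies at -0.34 (SE 0.16).

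The direction of the differences was not the same in the 3 pools. In pool 2, all 10 genes were lower in the AFO array than in the control array, with a median of -0.32, beside 54.5% of all genes. In pool 1 the count was 4 of 10 with a median of 0.082, beside 44% of all genes, and in pool 3 it was 7 of 10 with a median of -0.13, beside 55.1%. Lower in all 3 pools were Gpat3, Gpat4 and Dgat1, so 3 of 10, beside 12.8% of all genes, and 0 of 10 were higher in all 3, beside 10.5%. The summed fat cell markers were 15.70 in control pool 2 and 15.49 in AFO pool 2, 15.69 and 15.50 in pool 3, and 15.74 and 15.75 in pool 1. Summed skeletal muscle markers were 12.62 in control pool 2 and 14.86 in AFO pool 2, 9.53 and 12.72 in pool 1, and 7.90 and 8.72 in pool 3, with all 6 markers higher in AFO on average. The part of fat cell and muscle content in the differences of the 10 genes was not tested.

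**Figure D3:**
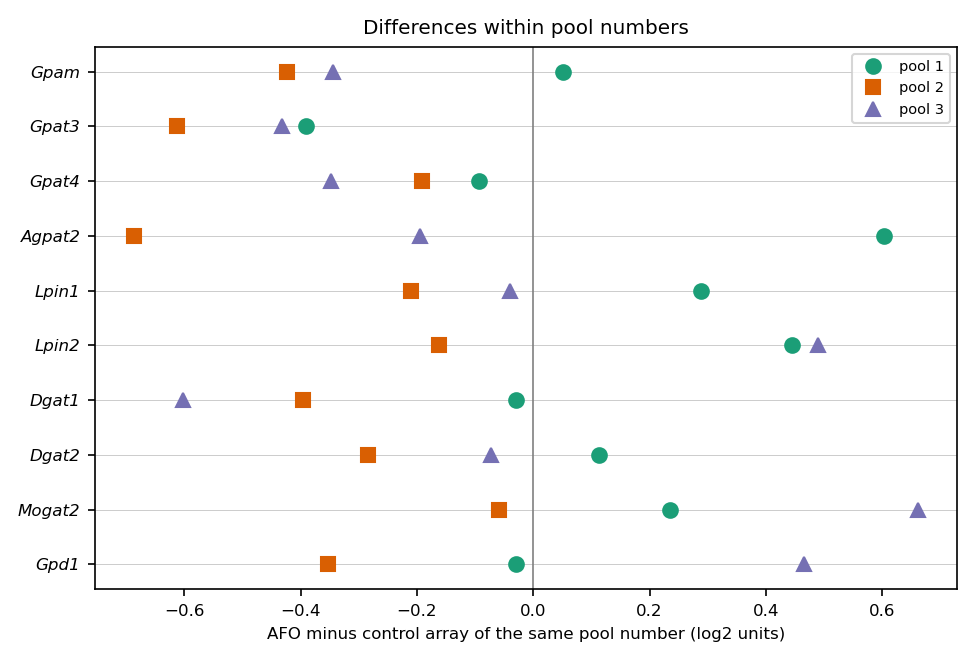
AFO minus control within each pool number (log2 units) for the 10 genes, with a symbol for each pool. All 10 pool 2 points lie to the left of 0, and Gpat3, Gpat4 and Dgat1 have all 3 points there.

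**Figure D4:**
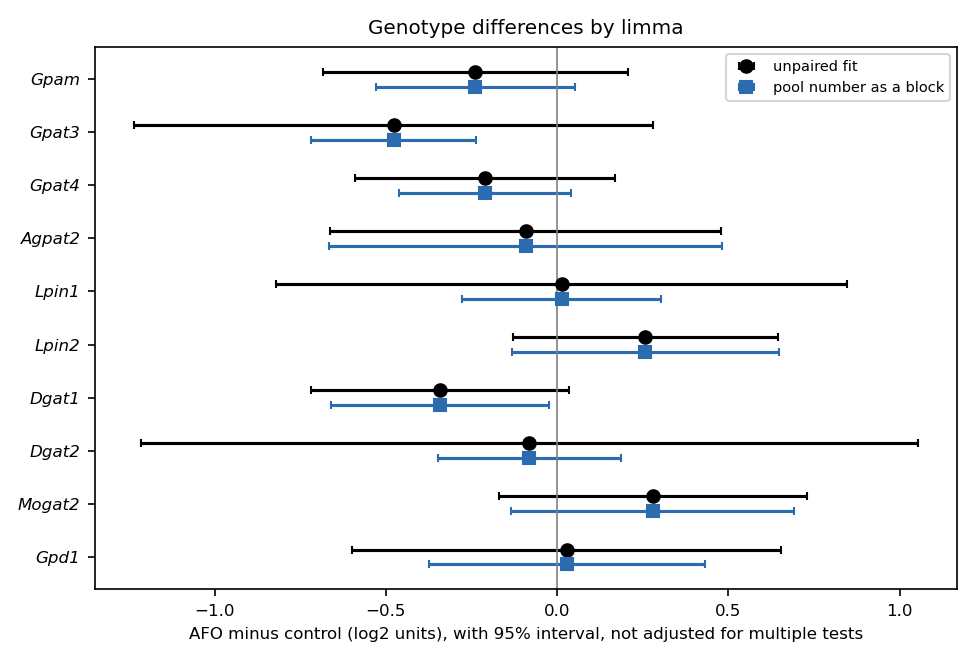
AFO minus control (log2 units) with its 95% interval from limma, unpaired (circles) and with pool number as a block (squares), not adjusted for the number of genes. All unpaired intervals include 0, and with the block those of Gpat3 (-0.72 to -0.24) and Dgat1 (-0.66 to -0.023) do not.

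Apart from genotype, the 10 genes parted by pool. The mean of the pool 2 arrays minus that of the other 4 was 1.14 for Dgat2, 0.79 for Gpat3 and 0.52 for Gpd1. It was -0.62 for Lpin1, -0.35 for Gpam and -0.10 for Dgat1, and between 0.003 and 0.12 for Gpat4, Agpat2, Lpin2 and Mogat2. The labels define no group by pool, and no test was made. The markers named above differed in the same arrays, and their part was not tested.

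Promoter sequence, from 250 bases upstream to the annotated start, is shown for Gpat3 and Lpin1, because pool 2 was the highest array in each genotype for Gpat3 and the lowest for Lpin1, and for both annotated starts of Gpam, whose probe sets varied to different degrees. The RefSeq promoter sequences used here (GRCm38.p6) matched 5 of the 10 genes (Gpam, Gpat3, Agpat2, Lpin1 and Lpin2). Sequences run 5′ to 3′ on the strand of the gene, and capitals mark matches on either strand to AGGTCA (a repeat unit of PPAR sites), the E-box CACGTG, the box CCAAT, the GC box GGGCGG, the TATA box TATAAA, the sterol element TCACNCCAC or the C/EBP letters TTGCNNAA. Which start the probe sets read was not examined.
Gpat3, chr5:100845979-100846228, plus strand: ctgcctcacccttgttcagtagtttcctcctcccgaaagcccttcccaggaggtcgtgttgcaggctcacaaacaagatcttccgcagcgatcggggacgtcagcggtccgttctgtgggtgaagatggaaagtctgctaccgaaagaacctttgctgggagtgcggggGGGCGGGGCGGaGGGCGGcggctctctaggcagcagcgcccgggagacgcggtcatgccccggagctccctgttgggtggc
Lpin1, chr12:16610967-16611216, minus strand: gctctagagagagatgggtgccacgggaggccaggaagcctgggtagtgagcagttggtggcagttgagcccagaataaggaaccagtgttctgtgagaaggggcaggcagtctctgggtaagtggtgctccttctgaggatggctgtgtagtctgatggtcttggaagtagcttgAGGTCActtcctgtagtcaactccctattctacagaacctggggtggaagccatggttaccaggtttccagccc
Gpam, first start, chr19:55127239-55127488, minus strand: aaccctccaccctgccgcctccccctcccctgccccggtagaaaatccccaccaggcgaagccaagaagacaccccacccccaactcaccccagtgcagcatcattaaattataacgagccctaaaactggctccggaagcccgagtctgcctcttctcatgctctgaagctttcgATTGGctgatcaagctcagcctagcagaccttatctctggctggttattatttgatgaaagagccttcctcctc
Gpam, second start, chr19:55099478-55099727, minus strand: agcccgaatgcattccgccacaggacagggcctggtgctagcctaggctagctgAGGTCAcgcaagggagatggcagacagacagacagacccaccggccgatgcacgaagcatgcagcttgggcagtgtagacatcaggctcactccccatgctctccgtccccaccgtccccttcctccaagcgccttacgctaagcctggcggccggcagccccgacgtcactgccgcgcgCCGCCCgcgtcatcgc

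Gpat3 held 3 matches to the GC box between 81 and 69 bases before its start, a pair of which overlap, and 32.7% of the 32851 promoters in the table held at least 1. Lpin1 held 1 match to AGGTCA, 74 bases before the start, which 14% of promoters held. The second start of Gpam held 1 match to AGGTCA at 196 bases and 1 GC box at 16 bases, and the first start 1 CCAAT box at 74 bases, which 33.8% of promoters held. The E-box (6.02% of promoters), TATAAA (12.4%), the sterol element (1.05%) and the C/EBP letters (9.56%) were not in these 4 windows. The shares count matches on either strand within the same 250 bases, and a match is a run of letters, not a site shown to be bound.

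For each gene the tested gene with the most similar profile was the one with the highest Pearson r over the 6 arrays, among 13453 genes. These values are a description, since the arrays share the pool structure given above. Dgat2 was most like Gzmb (r = 0.996), followed by Kcnk4 and Myadml2, and Gpat3 was most like Spock3 (0.989), followed by Vmn1r42 and Bmerb1. Lpin1 was most like Zfp428 (0.997), Gpam most like Tnks (0.992), Gpat4 most like Samm50 (0.967) and Agpat2 most like Ackr2 (0.967). Dgat1 was most like Ap4m1 (0.991), Lpin2 most like Spag6l (0.989), Mogat2 most like Nono (0.988) and Gpd1 most like Gm11691 (0.992).

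Genes on either side of the pathway were read from 8 lists holding 70 gene symbols, and 58 of them were tested (3 were under the filter, 9 not analysed here). By limma 0 of the 58 passed, unpaired or with the block, and at an unadjusted p under 0.05 there were 2 (beside 1.03% of all genes) and 8 (beside 4.32%). The median difference of the 58 was -0.085, with 40 lower and 18 higher in AFO, beside the -0.014 and 7301 of 13453 lower over all genes. Within pools the median of the 58 was 0.053 in pool 1, -0.20 in pool 2 and -0.13 in pool 3. Without both pool 2 arrays it was -0.000835, beside -0.0093 over all genes.

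Substrate supply held the widest differences. Of 6 genes around glycerol 3-phosphate, 3 were lower and 3 higher, with a median of -0.039. Aqp9, a glycerol channel, read 5.71, 5.21 and 4.89 in control and 6.68, 5.25 and 6.44 in AFO, a difference of 0.85 (SE 0.41). Aqp7, the glycerol channel of fat cells, differed by -0.47 (SE 0.55). Of 8 acyl-CoA synthetases and fatty acid transporters 5 were higher, with a median of 0.12. Acsl1 of this list and Gk of the glycerol 3-phosphate list were not analysed. Slc27a2, a transporter with acyl-CoA synthetase activity, read 5.20, 6.62 and 4.91 in control and 7.06, 7.44 and 6.09 in AFO, a difference of 1.29 (SE 0.53), and the AFO array was higher within each pool. Acsbg1, a synthetase of long-chain acyl-CoA, read 5.42, 5.83 and 5.28 in control and 7.60, 5.54 and 7.15 in AFO, a difference of 1.25 (SE 0.52).

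In Acsbg1 and Aqp9 the high arrays were AFO pools 1 and 3. Without both pool 2 arrays Acsbg1 passed, at 2.02 (SE 0.20, limma adjusted p 0.00350), as 1 of the 58 genes, beside 0.676% of all genes. In the same 4 arrays 0 of the 10 assembly genes passed, and 0 with the block added, beside 2.01% of all genes. The summed level of the 3 analysed epididymis markers was 9.46 in AFO pool 1, 6.06 in AFO pool 3 and 5.90 to 6.33 in the other arrays, and its part was not tested.

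The remaining enzymes of the pathway had small differences. Of 9 other glycerophosphate and lysophosphatidate acyltransferases and related genes 7 were lower, with a median of -0.079, among them Lpgat1, a lysophospholipid acyltransferase, at -0.29 (SE 0.18), while Lclat1, a cardiolipin-related acyltransferase, was at 0.25 (SE 0.22), at 0.063 without AFO pool 3 and at 0.46 without AFO pool 2. All 7 tested phosphatases and lipin regulators had a lower mean in AFO, with a median of -0.14. The median of these genes was 0.044 in pool 1, -0.20 in pool 2 and -0.28 in pool 3. Plpp3, a lipid phosphate phosphatase of the cell surface, differed by -0.22 (SE 0.13) and Lpin3, the third lipin, by -0.20 (SE 0.26). Mogat1, the monoacylglycerol acyltransferase related to Mogat2, read 8.34, 7.80 and 8.17 in control and 8.37, 7.24 and 7.89 in AFO, a difference of -0.27 (SE 0.31). Pool 2 was its lowest array in both genotypes. Lcat, a plasma cholesterol acyltransferase, differed by -0.0030 (SE 0.14).

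Of 7 droplet assembly genes 4 were lower, with a median of -0.048. The largest difference of this list was in Cidea, at 0.93 (SE 1.90). Cidea read 5.45, 10.36 and 4.46 in control and 7.31, 10.63 and 5.13 in AFO, so pool 2 was its highest array in both genotypes. Bscl2, which encodes seipin, read 11.45, 11.66 and 11.41 in control and 11.42, 11.22 and 10.91 in AFO, a difference of -0.32 (SE 0.16). As in Dgat1, AFO pool 1 lay with the control arrays and AFO pools 2 and 3 were lower. Fitm1, a fat storage protein prominent in muscle, differed by 0.36 (SE 0.34) and was highest in AFO pool 2, at 7.59. That array also had the highest summed skeletal muscle markers, and the part of muscle content in the Fitm1 values was not tested. Of 9 genes of the phospholipid branch 6 were lower, with a median of -0.019. Cds1, which diverts phosphatidate to CDP-diacylglycerol, read 6.96 and 6.12 in AFO pools 1 and 3 and 4.79 to 5.37 elsewhere, a difference of 0.80 (SE 0.52), and Selenoi, an ethanolamine phosphotransferase, differed by -0.24 (SE 0.33).

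Of 10 transcription factors known to act on these genes 8 were lower, with a median of -0.15. The median was -0.0060 in pool 1, -0.36 in pool 2 and -0.18 in pool 3, and it turned to 0.057 without both pool 2 arrays. Nr3c1, the glucocorticoid receptor, read 9.80, 9.67 and 9.72 in control and 9.57, 9.57 and 9.59 in AFO, a difference of -0.15 (SE 0.11). It was the 1 gene of the 58 whose genotypes did not overlap, beside 1.47% of all genes with AFO below control and 3.5% in either direction. Nr1h3, the oxysterol receptor LXR alpha, differed by -0.24 (SE 0.19).

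**Figure D5:**
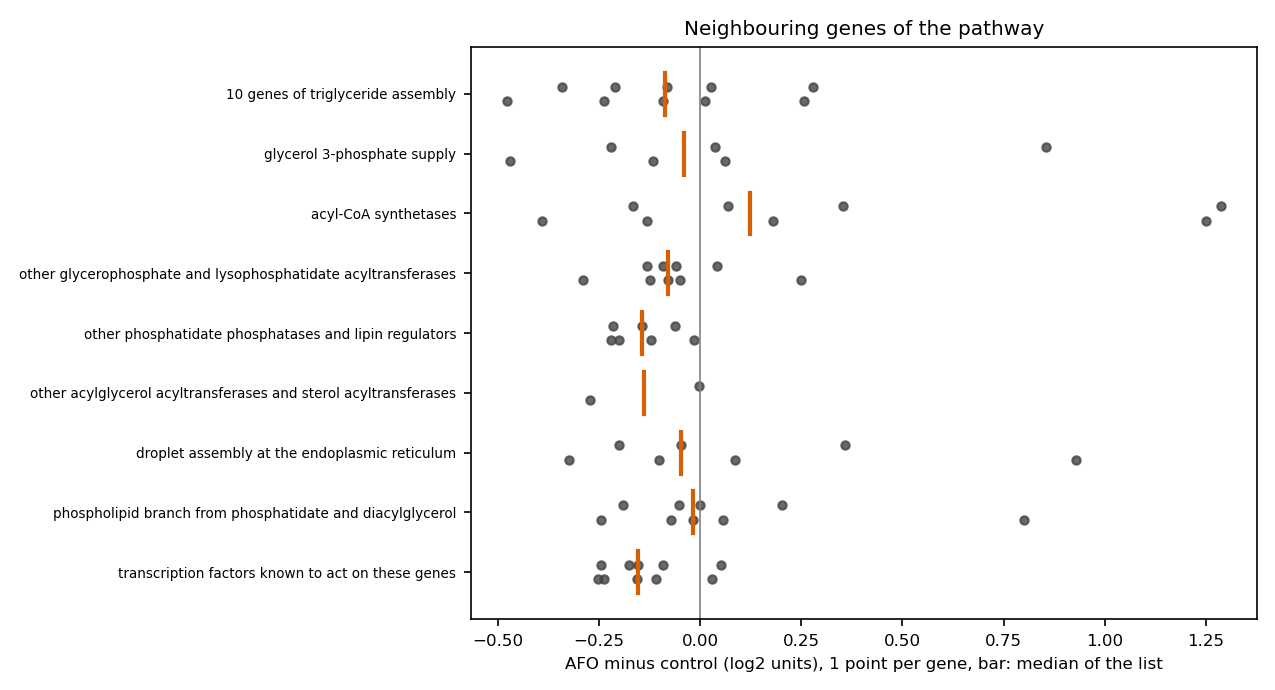
AFO minus control (log2 units) for each tested gene of the 8 neighbouring lists and for the 10 genes of triglyceride assembly, with a bar at the median of each list. Medians lie between -0.15 and 0.12, and the points farthest to the right are Slc27a2 and Acsbg1.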

How the data were processed

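Total RNA was labelled by 3' in vitro transcription and hybridised to Affymetrix arrays, per the labels' protocols. Values were deposited as log2 levels that the authors made with RMA in Affymetrix Expression Console 1.4, per the submitters' processing notes. RMA equalises the distributions of the arrays (medians 5.35 to 5.43), which hides any shift common to most genes and narrows differences of dim probe sets. The genome build behind the probe sets is not given in the sources used here. Control probe sets and those with several symbols (932) or none listed (9160) were left out.

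AFO and control were compared with limma 3.58.1 in R 4.3.3 (empirical Bayes with trend, Benjamini-Hochberg over all genes), by 1 probe set a gene above the 40th percentile. A fit over all 34945 probe sets gave the values of further probe sets. Groups came from the titles, and the pool number is the biological replicate number given there. Deviations from the genotype means correlated across genes at 0.594, 0.799 and 0.589 for equal pool numbers, all above 0.1, so a fit blocked on pool number stands beside the unpaired one. Because control pool 1 with AFO pool 3 (0.441) and control pool 3 with AFO pool 1 (0.362) also correlated, the pairing is not settled by this check, and what a pool number shares is not stated. The genes, lists, tests and alternatives were chosen with earlier results of these data known. Named are all 10 genes with each probe set, and per list the genes that pass (up to 4) or else the 2 with the smallest p. Bscl2, Aqp9, Acsbg1 and the others named from lists come from this rule, except Cidea, which is given because its difference was the largest of its list. The fits were tested on simulated data without a shared pool effect, with planted changes larger than the differences of the 10 genes. That test does not cover the block under pool structure or differences of this size. The number of arrays limits the precision.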

Additional observations from a re-analysis of the deposited data

How the results depend on the processing

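Over the 18 alternatives (17 for Mogat2, which a filter at the 60th percentile removes), 0 of the 10 genes passed, and the lowest limma adjusted p was 0.305, for Lpin2. Gpam, Gpat3, Gpat4, Lpin2, Dgat1 and Mogat2 kept their direction in all of them. Dgat1 ran from -0.49 to -0.012, the last from its dim probe set, chosen where names ending in _s_at are avoided. Lpin2 had its lowest value, 0.050, as the mean of its probe sets. The count of genes called, 0 in the unpaired fit, was 2 with pool number as a block, 91 without both pool 2 arrays and 270 without them and with the block, and ran from 0 to 27 when each array was left out. The 27 came without AFO pool 2, and the cause was not tested. For probe sets these counts were 2, 159, 249 and 0 to 90, with the 90 also without AFO pool 2. The block changed no call among the 10 genes. Agpat2 turned to 0.20 without both pool 2 arrays, with or without the block, and to 0.36 with array weights. Dgat2 turned to 0.020 without pool 2, with or without the block. Gpd1 turned to -0.048 as the mean of its probe sets, and Lcat to 0.0063 without pool 2, with or without the block, and to 0.0051 with median centring. When each array was left out, values crossed 0 for Agpat2 (-0.32 to 0.095), Lpin1 (-0.26 to 0.31), Dgat2 (-0.41 to 0.35), Gpd1 (-0.22 to 0.29), Fitm1 (-0.0080 to 0.65), Aqp7 (-0.89 to 0.056), Mogat1 (-0.54 to 0.025), Lcat (-0.10 to 0.051), Lpin3 (-0.37 to 0.032) and Selenoi (-0.51 to 0.021). In the blocked fit of pools 1 and 3, on 2 arrays a genotype, 270 of all 13453 genes (2.01%) passed. Acsbg1 (2.02, limma adjusted p 5.9e-07), Slc27a2 (1.52, 0.000109), Aqp9 (1.26, 0.000611) and Cds1 (1.28, 0.000595) were among them. So few arrays with a block leave little to estimate the spread of a gene, so these p-values lean on the empirical Bayes step. Of the neighbouring lists, only genes named by the rule given above, thus not Cidea, were looked up in this fit. Whether further list genes passed it was not examined.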
